A study of Mus musculus with 2 samples.

Results

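The glycolysis and hypoxia genes described here are 34 mouse genes that encode the glucose transporters, the enzymes that turn glucose into lactate, the lactate transporters, the hypoxia-inducible factor HIF-1α with its oxygen-sensing hydroxylases, and further genes known to respond to low oxygen. They were chosen by symbol from the 32285 gene rows of a single-cell RNA-seq count matrix. All 34 were present. The symbol Aldoa stood on 2 rows, of which 1 had no counts, so that the 34 symbols covered 35 rows. The cells were CD45+ leukocytes sorted from the kidney. The mice were of the B6 strain and had chronic kidney disease after aristolochic acid, a plant toxin that injures the tubules (treatment label AAN CKD, time label week 2). Cells of 2 hashed samples, each marked by its own antibody hashtag, were captured together in 1 library by the 3' Chromium method, which counts each captured RNA molecule once through a unique molecular identifier (UMI). Every group compared here carried the same genotype and the same disease, and the samples used hold no untreated kidney. The other sample of the series, a Visium section, was not analysed here.

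Glycolysis splits glucose into pyruvate and yields ATP without oxygen, and lactate dehydrogenase and the monocarboxylate transporters then turn pyruvate into lactate and move it out of the cell. When oxygen is scarce, the prolyl hydroxylases that mark HIF-1α for destruction lose activity, and HIF-1 with its partner ARNT binds short DNA cores in the promoters of most glycolytic genes. In leukocytes the same programme is also known to be raised by activation and proliferation when oxygen is present.

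The labels limit what the groups stand for. The title names W1 and W2 and a single mouse, and the labels say neither that the hashed samples are separate animals nor which week each belongs to. The names of the deposited matrices carry w2 and m1 for hashed sample 1 and W2 and m2 for hashed sample 2, without a key. The extraction protocol speaks of human kidneys, although the organism label and every gene identifier are mouse. The cell type label reads mesenchymal stem cells, whereas Ptprc, which encodes CD45, stood at 474 and 474 UMIs per 1000000 UMIs (CPM) over all cells, and 6 fibroblast and mesenchymal stem cell markers summed to only 5.22 and 10.98 CPM. The matrices held 7015 barcodes with 20743037 UMIs in hashed sample 1 and 25314154 UMIs in the other, and no barcode was shared. After filters, 3089 and 3467 cells remained, with medians of 5669 and 6568 UMIs. Throughout, a pair of values joined by "and" gives hashed sample 1 and then hashed sample 2, and a 95% interval covers counting error only, because 1 library allows no test over animals.

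Cells were placed into leukocyte classes by the UMIs of marker genes that contain none of the 34. The largest class held 1228 and 1897 macrophages gated on the complement genes C1qa, C1qb and C1qc, the pattern of resident kidney macrophages. The class of 46 and 26 cells gated on Arg1, Mmp12, Lpl and Gpnmb is called Arg1-gated macrophages. Classical monocytes numbered 84 and 92 cells, and patrolling monocytes 30 and 46. Dendritic cells comprised 100 and 207 cells of type 2, 33 and 59 of type 1 and 66 and 46 migratory cells carrying Ccr7. The T cells held 323 and 128 CD4 cells, 283 and 162 CD8 cells, and 282 and 143 cells without a UMI of Cd4, Cd8a or Cd8b1. In each comparison a gene counts as measured if, in both hashed samples, 1 class or the other had 50 CPM or more of it. It was counted as higher or lower if CPM + 10 differed 1.5-fold or more in the same direction in both.

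Promoter sequences show the HIF core in the genes themselves. RefSeq (GRCm38.p6) promoter tables gave windows for 31 of the 34 genes, and the table has none under the names Bnip3l, Ndrg1 and Slc2a3. Each window was cut to the 250 bases before the transcription start and searched on both strands for ACGTG and GCGTG, the HIF-binding cores. Either core occurred in 35 of the 43 windows of these genes (81.4%), against 38.6% of all 32851 windows. ACGTG alone was in 48.8% of the windows of these genes and 16.6% of all windows, and GCGTG in 53.5% and 28.2%. Windows and not genes were counted, and some windows of the same gene overlap, as for Eno1, so that 1 match can count more than once. Base composition was not matched between the sets. A match is a description of letters and does not show binding. The windows below belong to 4 genes higher in Arg1-gated than in C1q-gated macrophages, taken by the size of that difference among those with a single window free of annotated exons. Both motifs are in capitals, and each sequence reads 5′ to 3′ on the strand of its gene.
Pgk1, chrX:106186850-106187099, plus strand: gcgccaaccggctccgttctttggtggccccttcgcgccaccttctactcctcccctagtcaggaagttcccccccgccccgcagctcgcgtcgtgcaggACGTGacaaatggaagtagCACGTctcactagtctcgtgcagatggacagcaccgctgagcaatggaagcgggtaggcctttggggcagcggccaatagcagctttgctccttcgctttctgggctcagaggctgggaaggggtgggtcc
Pgam1, chr19:41911621-41911870, plus strand: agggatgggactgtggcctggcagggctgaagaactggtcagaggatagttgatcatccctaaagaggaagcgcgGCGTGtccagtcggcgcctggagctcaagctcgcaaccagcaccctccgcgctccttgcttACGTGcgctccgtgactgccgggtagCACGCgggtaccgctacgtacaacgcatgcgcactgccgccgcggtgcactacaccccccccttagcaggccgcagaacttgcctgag
Gapdh, chr6:125165774-125166023, minus strand: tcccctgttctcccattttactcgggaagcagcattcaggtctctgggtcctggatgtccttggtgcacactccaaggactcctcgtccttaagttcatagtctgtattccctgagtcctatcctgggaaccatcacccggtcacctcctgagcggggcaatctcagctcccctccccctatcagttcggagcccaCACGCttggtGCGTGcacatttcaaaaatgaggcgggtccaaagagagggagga
Hif1a, chr12:73907617-73907866, plus strand: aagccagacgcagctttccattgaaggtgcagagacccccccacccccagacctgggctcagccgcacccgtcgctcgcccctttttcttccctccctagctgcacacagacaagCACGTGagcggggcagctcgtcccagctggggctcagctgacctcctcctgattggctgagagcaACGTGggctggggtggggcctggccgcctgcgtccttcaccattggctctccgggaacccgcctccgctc
The Pgk1 window holds ACGTG 150 bases before the start and again, on the opposite strand, 131 bases before it. The Pgam1 window holds 1 ACGTG and 2 GCGTG, and the Gapdh window 2 GCGTG, on opposite strands 54 and 44 bases before the start. The Hif1a window has 3 matches of ACGTG, of which 2 are the overlapping strands of 1 CACGTG palindrome. The Gapdh and Hif1a windows lie within introns of longer annotated transcripts of the same genes, and the other 2 windows lie upstream of the gene. For 36 of the 43 windows, a stretch just after the start was found in an annotated transcript of the gene. Among the windows shown this held for Pgk1 and Gapdh and not for Pgam1 and Hif1a, whose starts are less certain.

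In the 10 classes with enough cells for comparison, 12 of the 34 genes reached 50 CPM in both hashed samples in every class, 8 in some classes and 14 in none. The 12 were Gpi1, Aldoa, Tpi1, Gapdh, Pgk1, Pgam1, Eno1, Pkm, Ldha, Mif, Bnip3l and Higd1a, so that every step from glucose 6-phosphate isomerase to lactate dehydrogenase, other than phosphofructokinase, was measured in every class. The Arg1-gated macrophages had the highest level of 16 of the 34 genes, and for 11 of these the level lay above that of the next class in both hashed samples. The lowest levels were most often in type 1 and in migratory dendritic cells, with 9 genes each. The heat map of levels by class shows these patterns in both hashed samples.

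**Figure D1:**
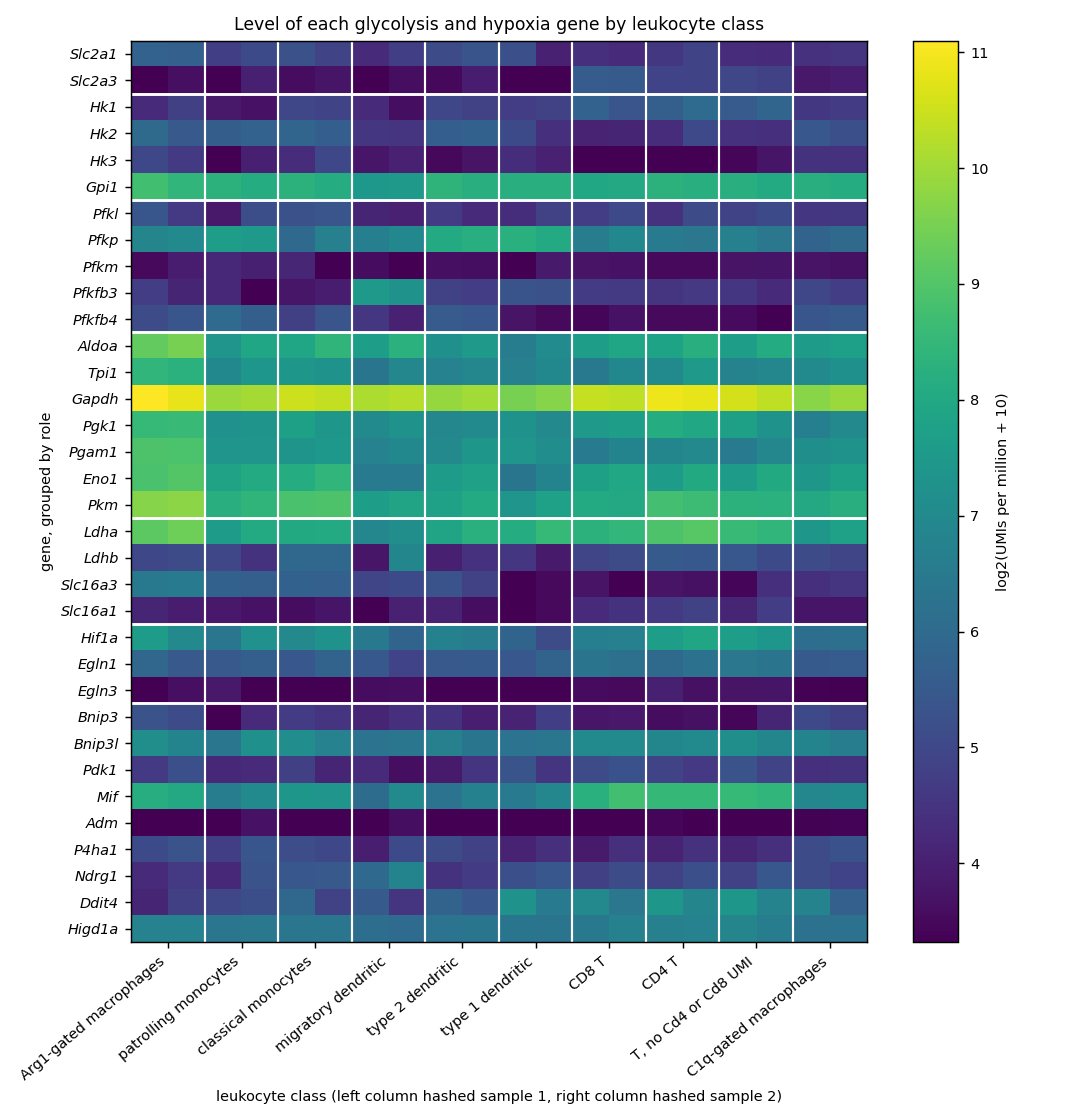
Level of each of the 34 genes, as log2(CPM + 10), in 10 leukocyte classes, with 1 column per hashed sample and genes ordered by role. Brighter colours mark higher levels. The lower glycolytic genes reach 50 CPM in every class and are brightest in the Arg1-gated macrophages. Another 14 genes stay below 50 CPM in at least 1 hashed sample of every class.

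Glucose uptake genes were low in all 10 classes compared. Slc2a1, which encodes the widely expressed glucose transporter GLUT1, was highest in Arg1-gated macrophages at 44.6 and 42.6 CPM, against 11.4 and 12.3 CPM in C1q-gated macrophages, and the other classes lay between 6.27 and 30.3 CPM. In hashed sample 2, 1 Arg1-gated cell held 7 of the 17 UMIs, and without it the level was 26.2 CPM, below the 30.3 CPM of type 2 dendritic cells. In hashed sample 1 the level without the top cell was 37.9 CPM. Slc2a3, which encodes the high-affinity transporter GLUT3, was highest in T cells among these classes. It stood at 37.6 and 36.3 CPM in CD8 T cells and at 19.9 and 20.04 CPM in CD4 T cells, against 4.54 and 5.07 CPM in C1q-gated macrophages and no UMI in type 1 dendritic cells, where 3 counts would make 10.1 and 4.7 CPM. Both transporters therefore fell under the 50 CPM limit in every class compared. In cells too few to compare, Slc2a3 passed it on few UMIs. It stood at 55.45 and 133.6 CPM in NK cells (5 and 7 UMIs) and 472.7 and 241.3 CPM in neutrophils (3 and 5 UMIs).

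The hexokinases, which trap glucose in the cell as glucose 6-phosphate, differed in where they were highest. Hk1 was highest in T cells, with 41.1 and 55.8 CPM in CD4 T cells against 13.9 and 15.9 CPM in C1q-gated macrophages and 4.34 and 2.96 CPM in patrolling monocytes. Hk2 was at 55.01 and 35.1 CPM in Arg1-gated macrophages and 47.5 and 40.3 CPM in classical monocytes, against 7.2 and 7.57 CPM in CD8 T cells. Its levels in CD4 T cells, 9.71 and 22.9 CPM, overlapped those of migratory dendritic cells, 13.2 and 12.9 CPM, and of type 1 dendritic cells, 23.5 and 10.97 CPM. Hk3, the myeloid hexokinase, reached at most 22.3 CPM in any class and hashed sample and had no UMI in CD8 T cells. Gpi1, which converts glucose 6-phosphate to fructose 6-phosphate, varied less and was lowest in migratory dendritic cells at 167 and 169.8 CPM.

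Phosphofructokinase catalyses the committed step, and its platelet-type subunit Pfkp was the one reaching 50 CPM. Pfkp stood at 296 and 259 CPM in type 1 dendritic cells, 260.0 and 284 CPM in type 2 dendritic cells and 191 and 174 CPM in patrolling monocytes, against 45.7 and 54.6 CPM in C1q-gated macrophages. The order of the dendritic cell types differed between the hashed samples. The liver-type subunit Pfkl was at 27.7 and 31.1 CPM in classical monocytes and 32.7 and 15.03 CPM in Arg1-gated macrophages, so that the highest of the 10 classes differed between the hashed samples, and the muscle-type subunit Pfkm did not pass 8.67 CPM in any class. Of the enzymes that make and break fructose 2,6-bisphosphate, the activator of phosphofructokinase, Pfkfb3 stood at 172 and 148 CPM in migratory dendritic cells and Pfkfb4 at 56.4 and 41.4 CPM in patrolling monocytes. In CD4 T cells Pfkfb4 was at 1.39 and 1.43 CPM.

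The 7 lower glycolytic genes (Aldoa, Tpi1, Gapdh, Pgk1, Pgam1, Eno1 and Pkm) carried most of the UMIs, together 5211 and 5031 CPM in Arg1-gated macrophages, 3240 and 3229 CPM in CD4 T cells and 1780 and 2055 CPM in C1q-gated macrophages. Type 1 dendritic cells had the smallest sum among the 10 classes, 1432 and 1605 CPM. Gapdh alone made up between 24.4% and 38.5% of the UMIs of all 34 genes in these classes. Eno1 shares sequence with Eno1b, a near-identical copy to which 135 UMIs were assigned in the kept cells beside 9333 for Eno1, so that its level is uncertain by at least that share.

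Among the lactate genes, Ldha, the dehydrogenase subunit that favours lactate formation, reached 556 and 656 CPM in Arg1-gated macrophages, 479 and 529.5 CPM in CD4 T cells and 112 and 133 CPM in migratory dendritic cells. Ldhb, the subunit that favours pyruvate, was at 51.4 and 51.2 CPM in classical monocytes and 24.9 and 21.1 CPM in C1q-gated macrophages. Its 108 CPM in the migratory dendritic cells of hashed sample 2 rested on 1 cell holding 48 of the 50 UMIs, without which the level was 4.55 CPM, against 3.79 CPM in hashed sample 1. Slc16a3, which encodes the lactate exporter MCT4, was highest in Arg1-gated macrophages at 78.8 and 85.2 CPM, followed by classical monocytes at 43.5 and 42.1 CPM and patrolling monocytes at 43.4 and 41.4 CPM, against 3.23 and 2.86 CPM in CD4 T cells. Type 1 dendritic cells were as low as the T cells, with 0 and 1 UMIs, and T cells without Cd4 or Cd8 UMIs had 0.831 and 11 CPM. Slc16a1, which encodes MCT1, was highest in CD4 T cells at 15.2 and 18.6 CPM.

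Hif1a, which encodes HIF-1α, was highest in CD4 T cells at 196 and 233 CPM and lowest in type 1 dendritic cells at 47.1 and 25.1 CPM. HIF-1α is controlled mainly through the stability of the protein, which these data do not measure. The hydroxylase gene Egln1 stood at 74.8 and 69.7 CPM in T cells without Cd4 or Cd8 UMIs and 34.1 and 19.4 CPM in migratory dendritic cells. Egln3, itself a known HIF target, did not pass 6.01 CPM in any class.

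The other hypoxia-response genes did not share 1 pattern. Mif, a cytokine gene, was highest in the T cell classes, with 294 and 416 CPM in CD8 T cells and 351 and 351 CPM in CD4 T cells, against 68.6 and 96.8 CPM in type 2 dendritic cells. Ddit4, which encodes the mTORC1 inhibitor REDD1, was at 162 and 106 CPM in CD4 T cells and 148 and 81.5 CPM in type 1 dendritic cells but only 7.43 and 17.5 CPM in Arg1-gated macrophages. Ndrg1 was highest in migratory dendritic cells at 53 and 103 CPM. The mitophagy receptor genes parted, since Bnip3 did not pass 29.7 CPM in any class while Bnip3l lay above 50 CPM in all of them. Higd1a, a mitochondrial gene, varied little, from 55.9 to 107 CPM. Pdk1, which restrains pyruvate dehydrogenase, and P4ha1, a collagen prolyl hydroxylase subunit, did not pass 32.5 CPM, and Adm, a vasodilator peptide gene, did not pass 2.96 CPM.

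Summed over all 34 genes, Arg1-gated macrophages had 7433 and 7158 CPM, followed among the 10 classes by CD4 T cells with 5298 and 5365 CPM. T cells without Cd4 or Cd8 UMIs had 4626 and 4305 CPM, classical monocytes 4460 and 4467 CPM and CD8 T cells 3988 and 4240 CPM. The remaining classes were closer together: patrolling monocytes at 3331 and 3880 CPM, type 2 dendritic cells at 3267 and 3577 CPM, C1q-gated macrophages at 3017 and 3265 CPM, migratory dendritic cells at 2917 and 3409 CPM and type 1 dendritic cells at 2945 and 3087 CPM. Among these 5 the order changed between the hashed samples. The plot of sums by role shows that the lower glycolytic genes set the height of the bars, while phosphofructokinase genes formed a larger layer in dendritic cells, 335 and 346 CPM in type 2 and 339.6 and 312 CPM in type 1, against 116 and 125 CPM in C1q-gated macrophages.

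**Figure D2:**
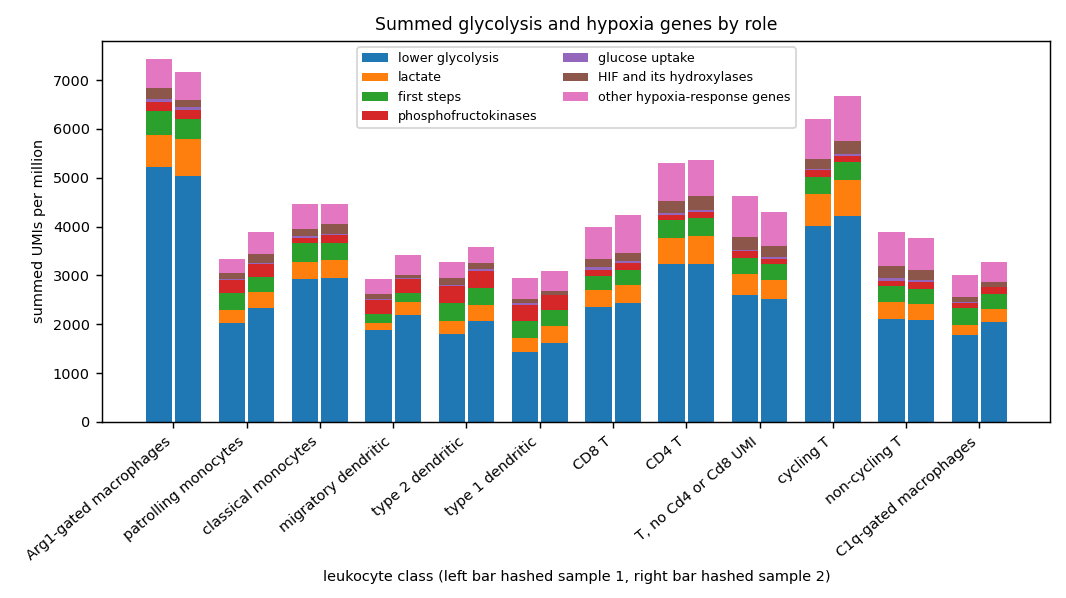
Stacked sums in CPM of the 34 genes by role in 12 leukocyte classes, the left bar of each pair being hashed sample 1 and the right bar hashed sample 2. The bars of Arg1-gated macrophages are the tallest at 7433 and 7158 CPM, and those of cycling T cells follow at 6208 and 6668 CPM.

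Among the 10 comparisons, the ratio of the summed levels was largest for Arg1-gated over C1q-gated macrophages. Of the 34 genes, 15 were measured, 12 were higher in Arg1-gated macrophages and 0 were lower, where 8.94% of all measured genes were higher and 10.8% lower. Pfkp and Slc16a3 were measured only through the Arg1-gated class, and both are among the 12. The 12 genes covered the path from aldolase to the lactate exporter: Aldoa, Tpi1, Gapdh, Pgk1, Pgam1, Eno1, Pkm, Ldha and Slc16a3, with Pfkp above them and Hif1a and Mif outside it. The summed level of all 34 genes was 7433 and 7158 CPM in Arg1-gated and 3017 and 3265 CPM in C1q-gated macrophages, a ratio of 2.46 (2.39 to 2.54) and 2.19 (2.11 to 2.28). The 34 genes thus took 0.743% and 0.716% of all UMIs in Arg1-gated macrophages, against 0.302% and 0.326% in C1q-gated macrophages.

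Slc16a3 had the largest ratio. It stood at 78.8 and 85.2 CPM in Arg1-gated macrophages, against 10.6 and 13.1 CPM in C1q-gated macrophages, a ratio of 7.46 (5.2 to 10.6) and 6.52 (4.38 to 9.45). The UMIs came from 24 of 46 and 14 of 26 Arg1-gated cells, and without the cell holding the most the levels were 55.3 and 74.5 CPM. Pgk1, phosphoglycerate kinase, the first ATP-yielding step, was at 358 and 371 CPM in Arg1-gated and 92.05 and 116 CPM in C1q-gated macrophages, a ratio of 3.89 (3.35 to 4.51) and 3.19 (2.67 to 3.77). Aldoa, the aldolase that splits fructose bisphosphate, was at 592 and 714 CPM against 184 and 202 CPM, a ratio of 3.21 (2.87 to 3.58) and 3.54 (3.12 to 4.0). Both levels in Arg1-gated cells lay above those of every other class compared. Pgam1, phosphoglycerate mutase, was at 473 and 468 CPM in Arg1-gated and 138 and 146 CPM in C1q-gated macrophages, a ratio of 3.42 (3.01 to 3.88) and 3.21 (2.74 to 3.73).

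Ldha was at 556 and 656 CPM in Arg1-gated and 165 and 210.5 CPM in C1q-gated macrophages, a ratio of 3.37 (3.0 to 3.78) and 3.12 (2.74 to 3.54). Pkm, the pyruvate kinase gene of leukocytes, was at 807 and 844 CPM against 248 and 290.2 CPM, a ratio of 3.25 (2.95 to 3.57) and 2.91 (2.6 to 3.25). Eno1, enolase, had ratios of 2.79 (2.46 to 3.16) and 2.49 (2.15 to 2.87). Tpi1, triose phosphate isomerase, had ratios of 2.81 (2.42 to 3.25) and 2.16 (1.78 to 2.6). The remaining 4 of the 12 had ratios from 1.82 to 3.06, both ends being those of Hif1a, whose levels in Arg1-gated cells were 186 and 115 CPM. The 3 measured genes that were not counted, Higd1a, Gpi1 and Bnip3l, had ratios of 1.54 and 1.53, 1.48 and 1.26, and 1.28 and 1.2. Among the genes not measured, Slc2a1 had a ratio of 3.91 (2.5 to 5.95) and 3.45 (1.96 to 5.7), the second of which rests in part on the 1 cell named above. Ddit4 lay in the opposite direction, at 7.43 and 17.5 CPM in Arg1-gated and 102 and 42.7 CPM in C1q-gated macrophages, but it was not measured under the limit of 50 CPM, since hashed sample 2 reached 50 CPM in neither class. Other genes below that limit were lower in both hashed samples too: Ndrg1 at 8.92 and 15.03 CPM in Arg1-gated and 24.06 and 19.6 CPM in C1q-gated macrophages, Pfkfb3 at 16.4 and 7.52 CPM against 21.4 and 16.9 CPM, and Pfkfb4 at 25.3 and 32.6 CPM against 32.3 and 36.2 CPM. The interval of the ratio excluded 1 in both hashed samples for Ddit4 and in hashed sample 1 for Ndrg1, and in neither for Pfkfb3 and Pfkfb4.

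**Figure D3:**
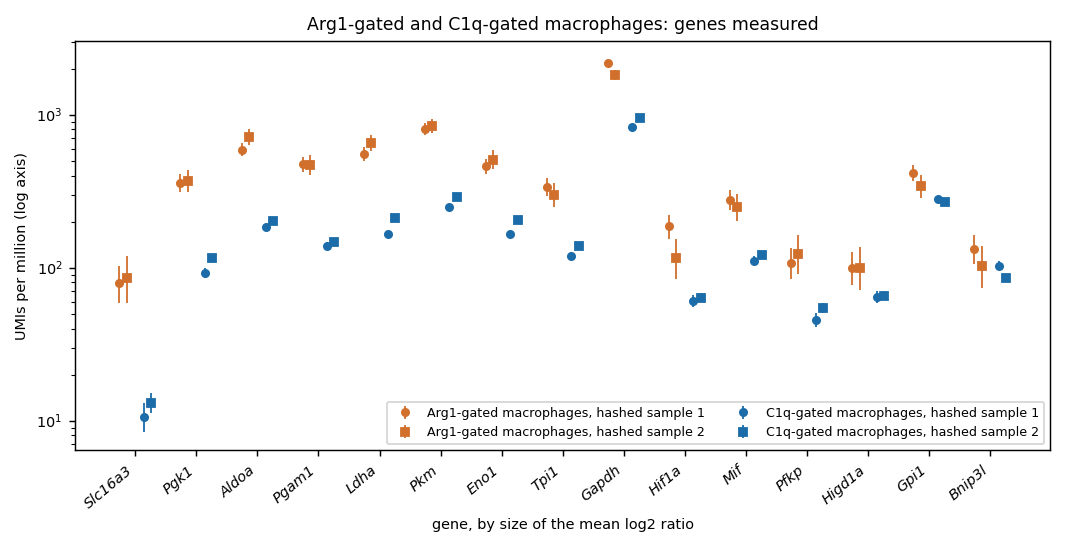
Level in CPM, on a log axis, of the 15 measured genes in Arg1-gated macrophages (left) and C1q-gated macrophages (right), with circles for hashed sample 1, squares for hashed sample 2 and bars for exact 95% intervals of counting error. Slc16a3 is farthest apart, at 78.8 and 85.2 CPM against 10.6 and 13.1 CPM, and Bnip3l, Gpi1 and Higd1a are closest.

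The difference was present in single cells. The median cell had 64.05 and 61.1 UMIs of the 34 genes per 10000 among Arg1-gated macrophages, against 26 and 29.2 among C1q-gated macrophages. The lower quartiles of the Arg1-gated cells, 46.8 and 49.6, lay above the upper quartiles of the C1q-gated cells, 33.5 and 37.03. Arg1-gated cells were deeper, with medians of 12780 and 14938.5 UMIs against 6291 and 6830, and carried more RNA of classical monocyte markers, 942 and 346 CPM against 63.6 and 38.7 CPM, with 1 and 0 of the 6 markers at 0. After every cell was thinned to 1000 UMIs, the mean was 6.37 and 6.92 UMIs of the 34 genes in Arg1-gated cells and 2.7 and 2.98 in C1q-gated cells. Among cells with at least 10000 UMIs, chosen as a check after the data were seen, 12 genes were again counted as higher and the log2 ratio of the sums was 0.96 and 0.85, against 1.30 and 1.13 among all cells. The part of the monocyte RNA in the difference was not tested. Proximal tubule markers, which would mark free RNA of injured tubules, summed to 2.97 and 17.5 CPM over 4 genes in Arg1-gated and 23.9 and 25.4 CPM in C1q-gated macrophages.

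Neighbouring pathways moved less widely. Of 30 further hypoxia-response genes, 29 were in the matrix, 6 were measured, 2 were higher and 1 was lower. The higher ones were Plin2, a lipid droplet coat gene, at 279.5 and 351 CPM in Arg1-gated and 159 and 213 CPM in C1q-gated macrophages, and Bhlhe40, a transcription factor gene, at 143 and 115 CPM against 47.7 and 47.6 CPM. Trf, the transferrin gene, was lower, at 217 and 195 CPM against 544 and 504 CPM. Vegfa, a classical HIF target, was at 31.2 and 7.52 CPM in Arg1-gated and 1.96 and 1.47 CPM in C1q-gated macrophages and was not measured. In the pentose phosphate pathway, 2 of 4 measured genes were higher: Pgd at 302 and 333 CPM against 117 and 118 CPM, and Tkt at 659 and 714 CPM against 288 and 321 CPM. In the tricarboxylic acid cycle 1 of 10 measured genes was higher, Mdh2, and of 3 measured genes of mitochondrial pyruvate entry 0 were counted. Txnip, which encodes an inhibitor of glucose uptake, was lower at 107 and 70.2 CPM against 322 and 265 CPM. Of 15 measured genes of the dissociation stress list, 4 were higher and 1 was lower, with sums of 5251 and 5760 CPM in Arg1-gated and 3954 and 4057 CPM in C1q-gated macrophages, and its part in the difference was not tested.

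Classical monocytes, the blood-derived precursors of inflammatory macrophages, had a summed level between those of the macrophage classes. Of 15 measured genes, 4 were higher than in C1q-gated macrophages and 0 were lower, where 7.0% of all measured genes were higher and 7.47% lower. The 4 were Hif1a at 117 and 150.1 CPM in monocytes against 60.8 and 63.5 CPM in C1q-gated macrophages, Ldhb at 51.4 and 51.2 CPM against 24.9 and 21.1 CPM, Pkm at 453 and 474 CPM against 248 and 290.2 CPM, and Eno1 at 269 and 340.4 CPM against 165 and 204 CPM. The ratio of Hif1a was 1.92 (1.44 to 2.52) and 2.37 (1.86 to 2.97). The summed level was 4460 and 4467 CPM in monocytes and 3017 and 3265 CPM in C1q-gated macrophages, a ratio of 1.48 (1.42 to 1.54) and 1.37 (1.31 to 1.43). Pfkp and Ldhb were measured only through the monocytes. The stress list summed to 7096 and 9113 CPM in classical monocytes and 3954 and 4057 CPM in C1q-gated macrophages, with 10 of 15 measured genes higher, and its part was not tested. With TMM scaling 2 of the 34 genes were counted, and at a 2-fold limit 0. Ldhb, just above the 50 CPM limit, lost its count with TMM scaling, doubled gate levels and clusters in place of gates. It also did so with mitochondrial UMIs of 5% or less and by the mean over cells.

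Patrolling monocytes, which survey vessel walls, differed from classical monocytes by 2 of 15 measured genes, 1 in each direction, where 7.54% of all measured genes were higher and 9.54% lower. Pfkp was higher at 191 and 174 CPM in patrolling and 53.4 and 95.2 CPM in classical monocytes, a ratio of 3.57 (2.16 to 6.0) and 1.83 (1.24 to 2.71). Ldhb was lower at 21.7 and 11.8 CPM against 51.4 and 51.2 CPM and was measured only through classical monocytes. The summed level was 3331 and 3880 CPM in patrolling and 4460 and 4467 CPM in classical monocytes. The number counted is near the share for all genes. With a filter at 100 CPM or with mitochondrial UMIs of 5% or less, only Pfkp was counted. By the mean over cells neither of the 2 genes was counted, while Aldoa was, as lower.

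MHC class II level, by which the study's design separates resident macrophages, gave no counted gene. Of 13 measured genes, 0 were higher and 0 lower in the MHC II-low class when set against the MHC II-high class of C1q-gated macrophages, where 3.55% of all measured genes were higher and 2.53% lower. The classes held 200 and 668 MHC II-low and 1028 and 1229 MHC II-high cells, and their sums were 2973 and 3177 CPM for MHC II-low and 3026 and 3313 CPM for MHC II-high cells, a ratio of 0.983 (0.950 to 1.02) and 0.959 (0.940 to 0.978). Gapdh was at 764 and 918 CPM in the MHC II-low class, against 847 and 979 CPM in the MHC II-high class. Eno1 was at 136 and 177 CPM against 171 and 219 CPM, short of the 1.5-fold limit. Pfkp stood further apart, at 30.1 and 27.4 CPM in the MHC II-low class against 48.95 and 69.6 CPM in the MHC II-high class, a ratio of 0.616 (0.437 to 0.848) and 0.394 (0.324 to 0.476). It was not measured, because hashed sample 1 missed 50 CPM in both classes, and on the scale of CPM + 10 its log2 ratios were -0.55 and -1.09. Among the companion genes, Hmox1, which encodes heme oxygenase 1, was higher in MHC II-low cells at 223 and 244 CPM against 132 and 138 CPM, and Bhlhe40 was lower at 14.02 and 7.42 CPM against 54.9 and 69.8 CPM. The stress list differed between the classes, with a sum of 2393 and 2616 CPM among MHC II-low and 4285 and 4855 CPM among MHC II-high cells. With TMM scaling 37.1% of all counted genes were higher in MHC II-low cells, against 58.4% without it, and 1 of the 34 genes was counted, as lower.

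Type 2 dendritic cells, which present antigen to CD4 T cells, had a sum close to that of C1q-gated macrophages, 3267 and 3577 CPM against 3017 and 3265 CPM. Of 14 measured genes 1 was higher and 0 were lower, where 9.65% of all measured genes were higher and 12.4% lower. The 1 gene was Pfkp, measured only through the dendritic cells, at 260.0 and 284 CPM against 45.7 and 54.6 CPM, a ratio of 5.69 (4.79 to 6.75) and 5.21 (4.65 to 5.83). Of 6 measured genes of the further hypoxia-response list, 1 was higher and 3 were lower, Plin2, Hmox1 and Cited2. The higher one was Bhlhe40, at 444 and 441 CPM in type 2 dendritic cells and 47.7 and 47.6 CPM in C1q-gated macrophages. The stress list summed to 8139 and 7743 CPM in type 2 dendritic cells, against 3954 and 4057 CPM, and its part was not tested.

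Migratory dendritic cells, which carry antigen to lymph nodes, were set against type 2 dendritic cells. Of 16 measured genes, 2 were higher and 4 were lower, where 12.4% of all measured genes were higher and 16.6% lower. Pfkfb3 was higher at 172 and 148 CPM in migratory and 19.3 and 16.5 CPM in type 2 dendritic cells, a ratio of 8.94 (5.22 to 16.3) and 8.99 (5.81 to 14.2). Ndrg1 was higher at 53 and 103 CPM against 12.04 and 15.4 CPM, and both genes were measured only through the migratory cells. Pfkp itself was lower, at 92.8 and 114 CPM against 260.0 and 284 CPM, so that the kinase and the enzyme making its activator lay in opposite directions. Eno1 at 79.5 and 79.5 CPM against 185 and 206 CPM, Ldha at 112 and 133 CPM against 224 and 293 CPM and Gpi1 at 167 and 169.8 CPM against 324 and 292 CPM were lower too. The sum of all 34 genes was 2917 and 3409 CPM in migratory and 3267 and 3577 CPM in type 2 dendritic cells. Gapdh and Aldoa were not lower, with ratios of 1.21 and 1.18 and of 1.36 and 1.7.

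Eno3, the muscle enolase, was at 90.8 and 62.3 CPM in migratory and 1.2 and 0.532 CPM in type 2 dendritic cells, beside the lower Eno1. Pfkfb3 UMIs were spread over 33 of 66 and 24 of 46 migratory cells. After thinning to 1000 UMIs, 18.5% (9.92 to 30.0) and 20.5% (9.8 to 35.3) of migratory cells held a Pfkfb3 UMI, against 3.03% and 0.971% of type 2 dendritic cells, and the share in classical monocytes, where the gene was near the floor, was 1.22% and 2.17%. At full depth the shares were 50% and 52.2% of migratory and 12% and 13.5% of type 2 dendritic cells, with medians of 8190 and 9559 against 8258.5 and 9193 UMIs. Ndrg1 was more uneven, with UMIs in 15 of 66 and 18 of 46 migratory cells and 42.05 and 70.5 CPM without the top cell. Among cells with at most 5% mitochondrial UMIs it was not counted, because 45.4 CPM in the migratory cells of hashed sample 1 missed the 50 CPM limit, while its log2 ratios there were 1.31 and 1.68. The stress list was lower in the migratory cells, 3180 and 4284 CPM against 8139 and 7743 CPM, with 12 of 15 measured genes lower, and its part was not tested. The plot of 6 genes by class sets Pfkp and Pfkfb3 side by side.

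**Figure D4:**
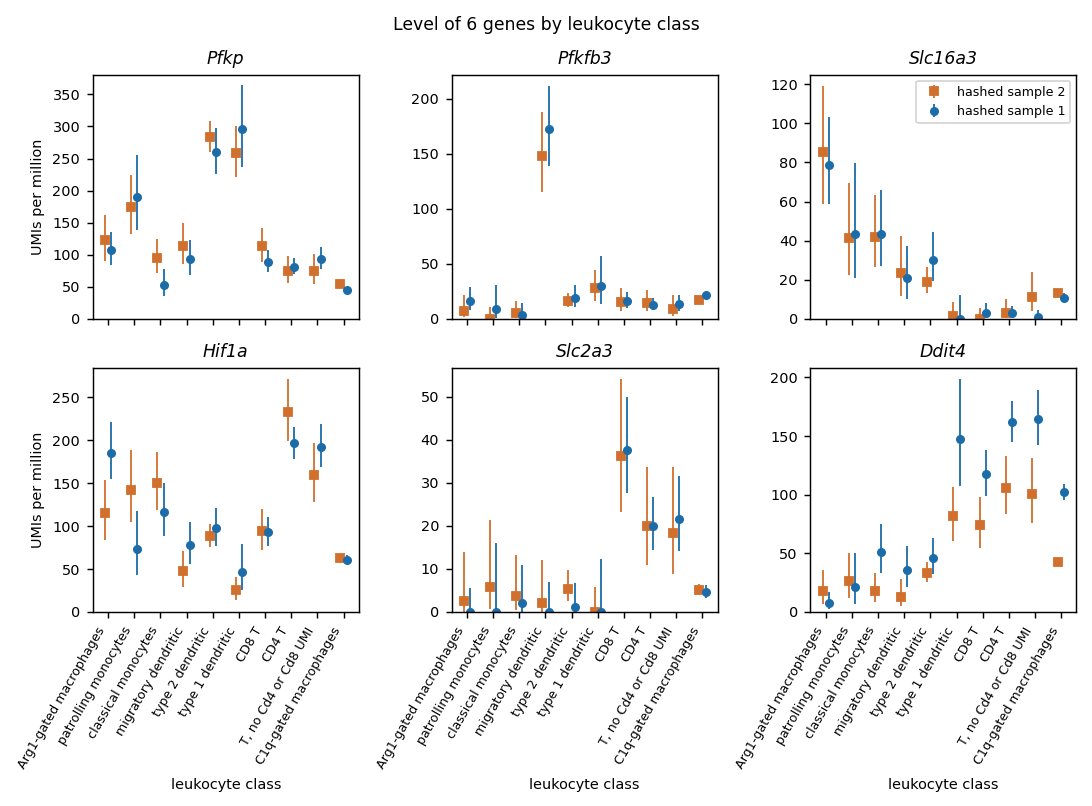
Level in CPM of Pfkp, Pfkfb3, Slc16a3, Hif1a, Slc2a3 and Ddit4 in each leukocyte class, with squares for hashed sample 2, circles for hashed sample 1 and bars for exact 95% intervals of counting error. Pfkfb3 stands apart in migratory dendritic cells at 172 and 148 CPM in hashed samples 1 and 2, and Ddit4 is lower in hashed sample 2 in most classes.

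CD4 T cells, the second population that the study's design names, were set against C1q-gated macrophages. Of 16 measured genes, 6 were higher and 0 were lower, where 25.3% of all measured genes were higher and 20.8% lower. The 6 were Hif1a, Mif, Ldha, Pgk1, Gapdh and Ddit4. Hif1a was at 196 and 233 CPM in CD4 T cells and 60.8 and 63.5 CPM in C1q-gated macrophages, a ratio of 3.23 (2.83 to 3.69) and 3.68 (3.09 to 4.35). Mif was at 351 and 351 CPM against 111 and 121 CPM, and Ldha at 479 and 529.5 CPM against 165 and 210.5 CPM. Pgk1 had ratios of 2.95 and 2.03, Gapdh of 2.29 and 1.85 and Ddit4 of 1.59 and 2.48. The T cells differed from the Arg1-gated pattern in the middle of the pathway: Pgam1 was at 109.5 and 116 CPM in CD4 T cells and 138 and 146 CPM in C1q-gated macrophages and was not counted. Pfkp, Egln1 and Ddit4 were measured only through the T cells.

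The summed level was 5298 and 5365 CPM in CD4 T cells and 3017 and 3265 CPM in C1q-gated macrophages, a ratio of 1.76 (1.72 to 1.79) and 1.64 (1.59 to 1.7). The median log2 ratio over the 16 genes was 0.55 and 0.51, against a median of 0.28 and 0.23 over all measured genes. With TMM scaling the median of all genes was -0.09, against 0.26 without it, as a mean of the hashed samples, the share of counted genes that were higher was 34.1% in place of 54.9%, and the log2 ratio of the sums was 0.52 and 0.42. Without mitochondrial and ribosomal protein genes in the totals that share was 65.9%, and 10 of the 34 genes were counted. CD4 T cells carried more cell cycle RNA, 2039 and 1631 CPM against 168 and 431 CPM over 12 genes, and among cells with at most 1 UMI of the cycling markers the log2 ratio of the sums was 0.58 and 0.50. Of the serine and one-carbon genes, which branch from the middle of glycolysis, 3 of 6 were measured and all 3 were higher: Phgdh at 184 and 160.3 CPM in CD4 T cells and 1.47 and 1.69 CPM in C1q-gated macrophages, Psph at 65.2 and 58.7 CPM against 9.94 and 9.62 CPM, and Mthfd2 at 67.5 and 90.2 CPM against 15.1 and 21 CPM. Of 7 measured genes of the further hypoxia-response list, 2 were higher and 5 lower, and Txnip was lower at 172 and 169 CPM against 322 and 265 CPM.

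CD8 T cells had a lower summed level than CD4 T cells over all cells, but not among the deepest cells. Of 16 measured genes 0 were higher and 3 were lower, where 2.0% of all measured genes were higher and 3.64% lower. Hif1a was at 92.7 and 93.9 CPM in CD8 and 196 and 233 CPM in CD4 T cells, a ratio of 0.472 (0.381 to 0.581) and 0.403 (0.295 to 0.542). Pkm was at 259 and 248 CPM against 431 and 392 CPM, and Ldha at 311 and 348 CPM against 479 and 529.5 CPM. The summed level was 3988 and 4240 CPM in CD8 and 5298 and 5365 CPM in CD4 T cells, a ratio of 0.753 (0.728 to 0.778) and 0.790 (0.752 to 0.830). CD8 T cells were shallower, with medians of 3434 and 3562 against 4954 and 3873.5 UMIs, and carried less cell cycle RNA, 1101 and 904 CPM against 2039 and 1631 CPM. Among the 16 and 5 CD8 and 53 and 16 CD4 T cells with at least 10000 UMIs, the mean log2 ratio of the sums was 0.21, and 13 of the 16 genes had a mean log2 ratio above 0, against 4 among all cells. Only 8 of the 16 were above 0 in both hashed samples there, and 3 were below 0 in both. Tpi1 (0.16 and 0.17), Gapdh (0.15 and 0.50) and Pgk1 (0.10 and 0.59) were then above 0 in both hashed samples, and Ldha was at -0.21 and 0.43. None of the 3 genes counted as lower among all cells was counted there, Hif1a being at -0.55 and -1.22. The 1 gene that was is Ddit4, lower at -0.64 and -1.41. With TMM scaling only Hif1a was counted, when 48.6% of all counted genes were higher in place of 35.4%. Without mitochondrial and ribosomal protein genes in the totals that share was 54.7%.

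Among CD4 T cells, those with a UMI of Foxp3, the factor of regulatory T cells, numbered 60 and 21. Of 16 measured genes 1 was higher than in Foxp3-negative CD4 T cells and 0 were lower, where 4.08% of all measured genes were higher and 2.2% lower. The gene was Hif1a, at 296 and 409.5 CPM in Foxp3 and 178 and 188 CPM in Foxp3-negative cells, a ratio of 1.67 (1.32 to 2.09) and 2.17 (1.55 to 3.02). The summed level was 5031 and 5676 CPM in Foxp3 and 5348 and 5286 CPM in Foxp3-negative cells, which differed in opposite directions in the hashed samples. At a 2-fold limit no gene was counted, and Hif1a was not counted among non-cycling cells, with a mean log2 ratio of 0.74. With TMM scaling 48.7% of all counted genes were higher, against 65.0% without it.

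Within T cells, the cycling cells had the higher levels. Cycling T cells, 145 and 43 cells with high levels of proliferation markers, were set against 718 and 368 non-cycling T cells. Of 17 measured genes 7 were higher and 1 was lower, where 16.9% of all measured genes were higher and 8.33% lower. Tpi1 had the largest ratio, at 175 and 259 CPM in cycling and 60.8 and 87.2 CPM in non-cycling T cells, a ratio of 2.88 (2.38 to 3.5) and 2.97 (2.28 to 3.86). Ldha was at 604 and 681 CPM against 307 and 293 CPM, and Gapdh at 2398 and 2329 CPM against 1191 and 1061 CPM. Pgk1, Mif, Pkm and Pgam1 completed the 7, with ratios between 1.95 and 2.84. Bnip3l was lower, at 75.1 and 74.8 CPM in cycling and 145 and 132 CPM in non-cycling T cells, a ratio of 0.518 (0.420 to 0.635) and 0.565 (0.385 to 0.811). Hif1a did not follow the enzymes, with ratios of 0.759 (0.647 to 0.889) and 1.36 (1.06 to 1.75) on opposite sides of 1. Hk1 was measured only through the cycling cells.

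The summed level was 6208 and 6668 CPM in cycling and 3881 and 3771 CPM in non-cycling T cells, a ratio of 1.6 (1.56 to 1.64) and 1.77 (1.69 to 1.85). Cycling cells were deeper, with medians of 9992 and 9225 against 3491.5 and 3233 UMIs, and after thinning to 1000 UMIs the mean was 5.62 and 5.26 UMIs of the 34 genes in cycling and 3.63 and 3.55 in non-cycling cells. Without mitochondrial and ribosomal protein genes in the totals, 50.6% of all counted genes were higher in place of 67.0%. All 4 measured serine and one-carbon genes were higher, among them Phgdh at 274 and 241 CPM in cycling and 89.6 and 75.3 CPM in non-cycling T cells. Of 14 measured tricarboxylic acid cycle genes 5 were higher, and Txnip was lower at 87.3 and 74.8 CPM against 385 and 327 CPM. In cycling C1q-gated macrophages, a comparison added after the data were seen, 2 of 14 measured genes were higher than in non-cycling ones, Pgk1 and Pgam1, and 0 lower, where 10.9% of all measured genes were higher and 2.01% lower. The sum there was 4273 and 3823 CPM in cycling and 2938 and 3147 CPM in non-cycling macrophages. The plot of log2 ratios sets these comparisons side by side. Several share the C1q-gated macrophages as their denominator.

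**Figure D5:**
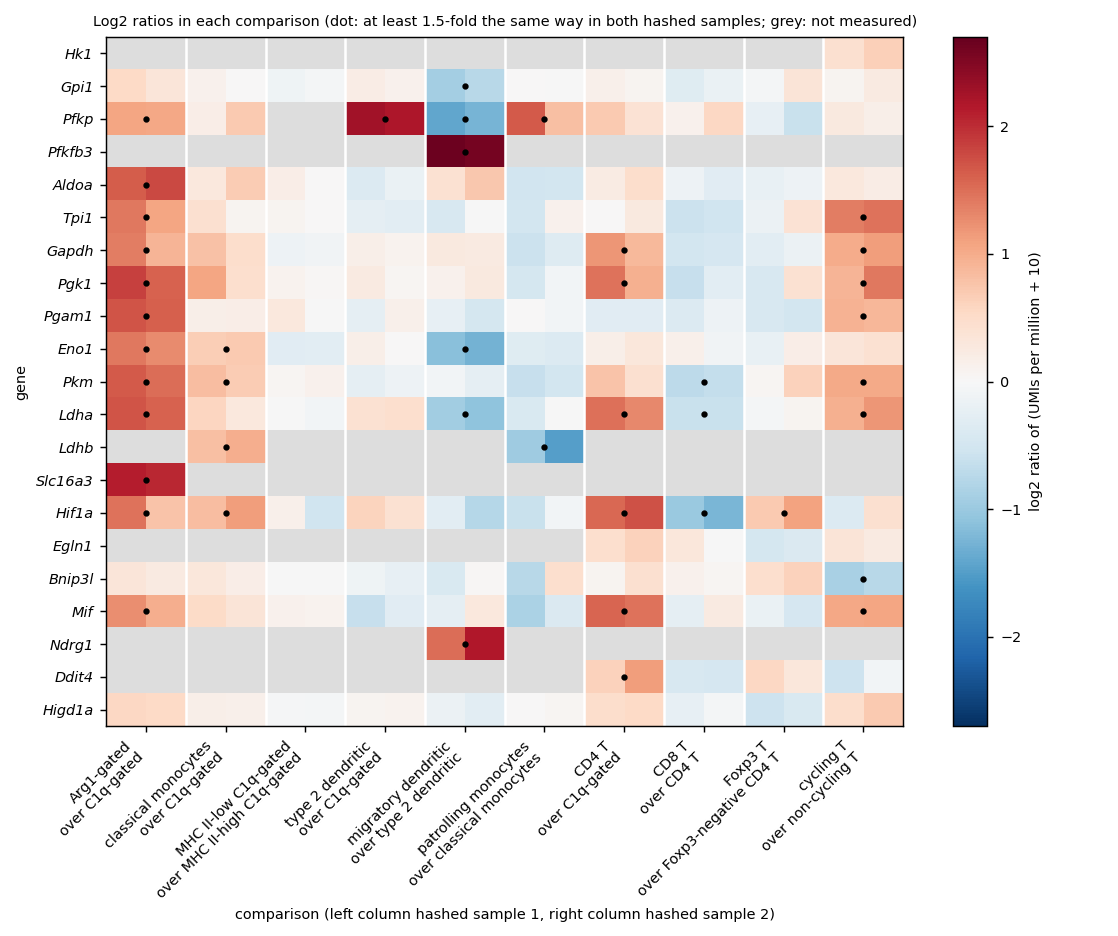
Log2 ratio of CPM + 10 for 21 genes in 10 comparisons, with a separate column for each hashed sample. A dot marks a gene counted as higher or lower in both hashed samples, and grey a gene that was not measured. For Arg1-gated over C1q-gated macrophages 12 genes carry dots, all for higher levels, and for MHC II-low over MHC II-high macrophages 0 do.

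The hashed samples were compared within each class as the only measure of spread that the library offers. Ddit4 was the gene that differed most regularly. It was lower in hashed sample 2 than in hashed sample 1 in all 6 classes where it was measured, and by at least 1.5-fold in 5 of them. In C1q-gated macrophages it stood at 42.7 CPM in hashed sample 2 and 102 CPM in hashed sample 1, a ratio of 0.418 (0.376 to 0.466), where 1.11% of all measured genes were lower. In classical monocytes it was at 18.3 CPM against 51.4 CPM, where 5.26% of all measured genes were lower. The share of all measured genes past 1.5-fold in either direction was 17.6% in type 1 dendritic cells. It was 4.88% in CD8 T cells and 6.92% in T cells without Cd4 or Cd8 UMIs. In CD4 T cells it was at 106 CPM against 162 CPM, a ratio of 0.655 (0.502 to 0.843), and fell short of the 1.5-fold limit on CPM + 10, which 2.14% of all measured genes passed downwards. In Arg1-gated macrophages and patrolling monocytes, where it was not measured, it was instead higher in hashed sample 2. In the 5 classes past 1.5-fold the stress list moved in either direction. It summed to 2243 CPM in hashed sample 2 and 2673 CPM in hashed sample 1 in type 1 dendritic cells, with 4 of 15 measured genes lower and 1 higher. It summed to 9113 CPM against 7096 CPM in classical monocytes, 4057 CPM against 3954 CPM in C1q-gated macrophages, 2202 CPM against 2176 CPM in CD8 T cells and 2675 CPM against 2406 CPM in T cells without Cd4 or Cd8 UMIs. Its part in the difference was not tested.

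Most glycolytic enzymes stayed within 1.5-fold between the hashed samples. Aldoa and Eno1 were higher in hashed sample 2 in all 10 classes, by at least 1.5-fold in 1 and in 0 of them, and Ldha in 9. In Arg1-gated macrophages Hif1a was the 1 gene of 16 measured past 1.5-fold, at 115 CPM in hashed sample 2 and 186 CPM in hashed sample 1, where 7.6% of all measured genes were lower in hashed sample 2. In C1q-gated macrophages it was Ddit4 alone of 15. Migratory dendritic cells differed most, with 4 of 17 measured genes higher and 1 lower in hashed sample 2, where 10.6% of all measured genes were higher and 5.78% lower. Aldoa had a ratio of hashed sample 2 over hashed sample 1 of 1.59 (1.22 to 2.08). Mif was at 120.4 CPM in hashed sample 2 and 56.8 CPM in hashed sample 1, Ndrg1 at 103 CPM against 53 CPM and Hif1a at 47.3 CPM against 77.6 CPM, and the fifth gene was Ldhb, which rested on 1 cell. In classical monocytes Pfkp was higher, at 95.2 CPM in hashed sample 2 and 53.4 CPM in hashed sample 1, where 6.85% of all measured genes were higher. The names of both matrices carry W2, beside m1 or m2, but no label states what these marks mean. The differences between the hashed samples therefore cannot be told apart from those of animal or time.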

How the data were processed

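Sorted CD45+ kidney cells of 1 sample, 2 hashed samples in 1 library, were used. The deposited matrices hold raw UMI counts per gene and cell with no scaling by the authors, and per the file headers they come from Cell Ranger 6.1.1. The submitters' processing notes list the mm10 build, Seurat 4.3.0 and an earlier Cell Ranger, 6.0. The other steps behind the counts are not given in the sources used here.

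A barcode was kept with 200 genes or more, 500 UMIs or more and mitochondrial UMIs of 10% or less, which left 6601 of 7015. Scrublet in scanpy 1.11.5 removed 40 doublets and ambiguous hashtags 5, together 0.682%, which left 6556 cells. Classes were gated on marker UMIs per 10000, with at least 3 marker UMIs and limits set after the data were seen, and hold no authors' annotation. Another 861 cells met no gate and 245 met more than 1. UMIs were summed per class and hashed sample and scaled to CPM, and ratios were taken on log2(CPM + 10), which understates differences of low genes. Classes under 50 cells were not compared, so that NK over CD8 T cells was not made. Intervals are exact 95% Poisson, conditional or binomial. Total counts were 20743037 and 25314154 UMIs. The work used Python 3.11.15, scipy 1.17.1, R 4.3.3 and, for TMM factors in 1 alternative, edgeR 4.0.16. Of these steps, the rule that counts genes as higher or lower was tested on simulated class sums that held counting error only.

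The genes, the companion lists and the tests were chosen with earlier results of these data known. The text accounts for all 34 genes, names at most 8 counted genes in each direction per comparison by the mean log2 ratio and at most 4 per companion list, and other genes named with values were chosen after their values were seen.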

Additional observations from a re-analysis of the deposited data

Results flagged for a closer look

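Droplets outside the comparisons held 2 of the 34 genes at levels above those of all 10 leukocyte classes compared. Neutrophils, 5 and 9 cells and too few to compare, also lay above these classes for other genes, on few UMIs. Gpi1 stood there at 630.2 and 530.8 CPM (4 and 11 UMIs). Slc2a3 was at 472.7 and 241.3 CPM (3 and 5 UMIs) and Slc16a3 at 472.7 and 193.0 CPM (3 and 4 UMIs). In 19 and 20 droplets that carried RNA of tubule cells and entered no class, Ldhb stood at 803 and 1049 CPM and Ndrg1 at 1543 and 908.7 CPM. In the 10 leukocyte classes Ldhb did not pass 107.5 CPM and Ndrg1 did not pass 103.2 CPM. The lower value of each gene in these droplets, 803.0 CPM for Ldhb and 908.7 CPM for Ndrg1, lies above every class, which is why both are listed here. Single droplets weighed heavily: the top droplet held 48.94% and 55.02% of the Ldhb UMIs and 16.24% and 28.18% of the Ndrg1 UMIs. Proximal tubule markers summed to 2745 and 2134 CPM in the same droplets. The 34 genes together made 6840 and 7129 CPM there.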

How the results depend on the processing

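No paired analysis was possible because no test was made, and the ratios were already formed within each hashed sample. For Arg1-gated over C1q-gated macrophages, between 9 and 15 genes were counted under every alternative run, and the log2 ratio of the sums lay between 0.90 (clusters in place of gates) and 1.43 (gate levels doubled), against 1.22. Counts moved by over 1.5 times elsewhere. For classical monocytes over C1q-gated macrophages, 4 genes became 2 with TMM scaling, 8 without a filter on low levels and 0 at a 2-fold limit. For MHC II-low over MHC II-high macrophages, 0 became 1, lower, with TMM scaling, without mitochondrial and ribosomal protein genes in the totals, and among cells with 10000 UMIs or more. For type 2 dendritic cells over C1q-gated macrophages, 1 became 3 without the filter and with clusters. For patrolling over classical monocytes, 2 became 4 without the filter, 0 at 2-fold, and 1 with a filter at 100 CPM, with mitochondrial UMIs of 5% or less, and by the mean over cells. By the mean over cells the 1 gene was Aldoa, which is not among the 2.

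For CD4 T cells over C1q-gated macrophages, 6 became 10 without mitochondrial and ribosomal protein genes in the totals, 14 without the filter and 3 at 2-fold. The log2 ratio of its sums, 0.76, became 0.53 as a median over the measured genes, 0.47 with TMM scaling, 0.65 by the mean over cells and 0.54 among non-cycling cells, short of 1.5-fold in at least 1 hashed sample. For CD8 over CD4 T cells, 3 became 1 with TMM scaling, at 2-fold, without cells holding a tubule marker UMI and by the mean over cells. Among cells with 10000 UMIs or more it became 1 as well, but a gene not among the 3, Ddit4, while Ldha reversed, at 0.11 in place of -0.60, and the log2 ratio of the sums was 0.21. For Foxp3 over Foxp3-negative cells, 1 became 0 at 2-fold, 2 without mitochondrial and ribosomal protein genes or without cells holding a tubule marker UMI, and 3 without the filter, by the mean over cells or among non-cycling cells. For cycling over non-cycling T cells, 8 became 4 at 2-fold, and the log2 ratio of the sums, 0.75, became 0.59 without Gapdh, 0.54 as a median and 0.64 without mitochondrial and ribosomal protein genes. The cause of these shifts was not tested.

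Over 153 pairs of gene and comparison, 1593 of 1741 values kept the sign of their mean and their side of the limit and moved by less than 1.5-fold. Both hashed samples changed sign in 26 values. Among these, Pgam1 in patrolling over classical monocytes with gate levels doubled kept the sign of its mean. The sign of the mean changed in 85, and 1 of the 85, that of Ldha, was of a counted gene. Of the others, those that moved by over 1.5-fold were Tpi1, Gapdh and Pgk1 in CD8 over CD4 T cells and Bnip3l in CD4 T cells among cells with 10000 UMIs or more, and Pgam1 and Mif in Foxp3 cells among non-cycling cells. Another 35 values of counted genes lost their count and 23 gained one. Slc16a3 (1.53) and Mif (0.63) in Arg1-gated macrophages lost their count with clusters. The alternatives with non-cycling cells and with 10000 UMIs or more were chosen after seeing the data, and that on depth was not run for classical monocytes over C1q-gated macrophages, patrolling over classical monocytes, Foxp3 cells and cycling T cells, which had too few cells. Clusters could not be fitted to patrolling monocytes. Depth limits the classes of few cells: 3 counts make 4.46 and 7.52 CPM in Arg1-gated macrophages.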
